A study of Homo sapiens with 4 samples.

Results

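Amino acid transporters of 7 solute carrier (SLC) families were followed in MOLM-14 (an established line of human acute myeloid leukaemia cells) after treatment with rapamycin and then GSK621 or with GSK621 alone. Members were the genes whose platform symbol starts with SLC1A, SLC3A, SLC6A, SLC7A, SLC36A, SLC38A or SLC43A and a digit. The rule found 68 of the 24241 genes with a symbol, comprising 60 protein-coding genes, 5 genes of long non-coding RNA and 3 pseudogenes. It also took in genes that carry no proteinogenic amino acid, such as SLC7A6OS, a protein-coding gene that only borrows the symbol of its neighbour SLC7A6, the nucleobase carrier SLC43A3, the creatine carrier SLC6A8, the monoamine carriers SLC6A2, SLC6A3 and SLC6A4, and 8 pseudogene or antisense rows. Rapamycin inhibits the growth-controlling kinase complex mTORC1, and GSK621 activates AMPK, a kinase that senses low energy. Cells in 2 cultures had 12 h of 10 nM rapamycin and then 6 h of 30 µM GSK621. Cells in 2 more cultures had 6 h of 30 µM GSK621 without rapamycin, so GSK621 was present in every culture of this single line. The labels call the cultures biological replicates, so n = 2 per group, and 1 Affymetrix whole-transcript array was run per culture. Untreated cells and cells given rapamycin alone were not analysed here, so an effect of rapamycin by itself and a changed response to GSK621 cannot be told apart.

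Cells take up amino acids through carriers with overlapping substrates. Exchangers of the SLC7 family, such as LAT1 (SLC7A5) and xCT (SLC7A11), reach the plasma membrane as a pair with the heavy chain 4F2hc, also called CD98, the product of SLC3A2. Sodium-driven carriers of the SLC1 and SLC38 families load the cell with glutamine and small neutral amino acids, which LAT1 can exchange for leucine, and SLC38A9 on the lysosome reports arginine to mTORC1. Several of these genes are known targets of ATF4, the transcription factor that is made when amino acids run short and whose synthesis mTORC1 also favours. Leukaemic cells are known to depend on glutamine, leucine and cystine uptake.

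The values were log2 expression, 1 probe set per gene, and array medians ran from 5.37 to 5.43. The 10 myeloid markers measured, among them PTPRC, FLT3, LYZ and AZU1, all had a mean over 6, while 2 of 12 markers of lymphoid, erythroid, epithelial, fibroblast and neuronal cells did, SNAP25 (6.66 on both arrays after rapamycin and GSK621, against 7.07 and 7.13 after GSK621 alone) and COL1A1. Averaged over the myeloid list, the log2 level was 8.79 and 8.75 after rapamycin and GSK621, against 8.67 and 8.66 after GSK621 alone. Over the other markers it was 4.68 and 4.63, against 4.69 and 4.56. The part of these shifts in the results below was not tested. Bulk RNA does not tell fewer cells of a kind from less RNA per cell. Only 4 arrays were available, and over all genes the standard error (SE) of a log2 difference had a median of 0.11.

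Rapamycin before GSK621 went with small differences in these transporters. A mean over 6 on the 4 arrays was taken as expressed, which 30 members passed and 38 did not. Just inside that level were SLC7A5P2 at 6.05 and SLC6A10P at 6.34, and just outside were SLC6A12 at 5.87 and SLC7A10 at 5.85. Of the 30 expressed members, 28 differed by less than 0.25 on the log2 scale (1.19-fold) in either direction, or 93.3%, against 85.7% of the 10074 expressed genes. In sign, 15 were higher and 15 lower after rapamycin, where 54.6% of all expressed genes were higher. The expressed members had a median log2 difference of -8.0e-05, beside 0.0178 over all expressed genes. Without the 4 expressed pseudogene or antisense rows, SLC7A6OS and SLC43A3, the median over the other 24 was -0.0195. The 95% interval of the difference lay within 0.5 of 0 (1.41-fold) for 28 of them, the other 2 being SLC7A2 and SLC6A8. The same was so for 77.5% of all expressed genes. With 2 arrays a group, the 95% interval reached 0.25 to either side of the difference at the members' median SE.

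With limma, 0 of the 24241 genes passed an adjusted p under 0.05, which is 0% of genes, and the smallest adjusted p among the 68 members was 0.541. At an unadjusted p under 0.05, 3 members were lower (SLC7A2, SLC7A7 and SLC6A12) and 2 were higher (SLC36A3 and SLC6A11) after rapamycin. Over all genes 4.2% were lower and 4.31% higher by that rule, against 4.41% and 2.94% of the members, so these counts sit near the background. Among expressed genes 4.84% were lower and 6.1% higher, and of the 30 expressed members 1 was lower and 0 were higher. A fit to expressed genes alone gave 2 lower (SLC7A2 and SLC7A11) and 2 higher (SLC38A12 and SLC6A6) at that threshold, with 7.59% and 9.96% of genes lower and higher. With a variance trend and robust moderation 4 members were lower (SLC7A2, SLC7A11, SLC3A2 and SLC38A2) and 3 higher (SLC38A12, SLC6A6 and the dim SLC36A3), with 5.05% and 5.53% of genes. Without GSK621 replicate 2 no member was lower or higher by that rule, and leaving out replicate 2 of rapamycin then GSK621 left 1 lower and 0 higher. Of the 38 dim members 2 were lower and 2 higher, beside 3.75% and 3.04% of dim genes. Both rapamycin arrays lay below both GSK621 arrays for 15 of the 68 members and above them for 10, where 18.9% and 20.5% of all genes did. Among the 30 expressed members these counts were 7 and 4, where 21.6% and 28% of expressed genes did. The other analyses of the same arrays gave adjusted calls for 74 genes with a variance trend and robust moderation, 18 genes with the test limited to expressed genes and 1 gene without moderation, and in each of them 0 were members.

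**Figure D1:**
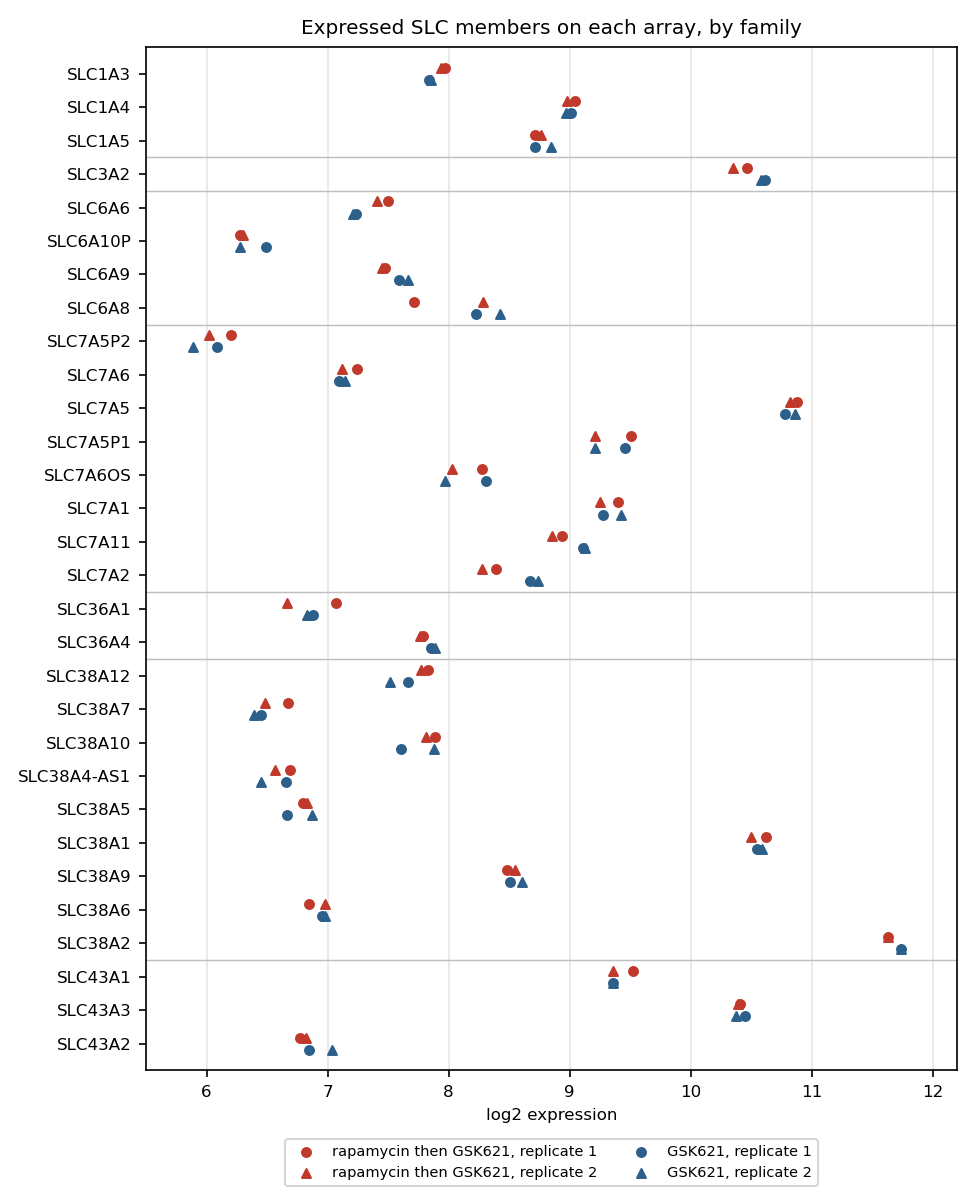
Log2 expression (horizontal axis) of the 30 expressed members on each array, grouped by family, with rapamycin then GSK621 in red above GSK621 in blue and replicate 1 as circles, replicate 2 as triangles. The red and blue points of SLC7A2 stand apart by more than the points of 1 colour do, and those of SLC7A5, SLC1A4 and SLC38A1 intermix.

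Windows around the RefSeq transcription starts of the transporters were searched for letters that ATF4 and NRF2 are known to bind, since both factors have known targets among amino acid carriers. Each window held 250 bases before and 50 after a start (GRCh38.p14), and 23 of the 30 expressed members were in the table. SLC7A2, SLC7A11, SLC6A6, SLC43A3, SLC6A10P, SLC7A5P1 and SLC7A5P2 had no window there and were not searched. The CARE motif of ATF4 with its C/EBP partners, TTNCATCA on either strand, was present for 6 of the 23 members, SLC1A3, SLC1A4, SLC1A5, SLC3A2, SLC38A1 and SLC7A1, and in 4.46% of all genes in the table. Its strict form TTGCATCA was present for SLC1A3, SLC1A4 and SLC1A5, and in 1.08% of all genes. The antioxidant response element of NRF2, TGACNNNGC on either strand, was present for 6 of the 23 and in 16.1% of all genes. These shares are over all 27305 genes of the table, expressed or not, so they are no matched background for the members. A gene with several starts was counted if any of its windows matched. The windows below belong to the heavy chain and to carriers of the main amino acid groups described next. Only windows with a CARE match are shown, so another SLC1A5 window, with antioxidant letters alone, is left out. CARE and antioxidant matches are in capitals, with no overlap between them, while the strict CARE letters are contained in the looser ones.
SLC3A2, chr11:62881449-62881748, plus strand: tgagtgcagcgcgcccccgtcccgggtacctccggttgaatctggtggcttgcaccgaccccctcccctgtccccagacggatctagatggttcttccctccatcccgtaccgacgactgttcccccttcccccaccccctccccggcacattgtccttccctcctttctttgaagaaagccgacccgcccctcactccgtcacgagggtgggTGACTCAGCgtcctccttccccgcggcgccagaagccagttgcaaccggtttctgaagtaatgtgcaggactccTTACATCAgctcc
SLC1A4, chr2:64989149-64989448, plus strand: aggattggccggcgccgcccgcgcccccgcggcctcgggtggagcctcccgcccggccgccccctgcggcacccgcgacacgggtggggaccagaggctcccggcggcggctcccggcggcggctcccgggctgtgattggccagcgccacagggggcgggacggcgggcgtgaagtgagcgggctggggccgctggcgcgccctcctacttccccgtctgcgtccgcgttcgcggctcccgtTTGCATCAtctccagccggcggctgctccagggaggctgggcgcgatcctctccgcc
SLC1A5, chr19:46784765-46785064, minus strand: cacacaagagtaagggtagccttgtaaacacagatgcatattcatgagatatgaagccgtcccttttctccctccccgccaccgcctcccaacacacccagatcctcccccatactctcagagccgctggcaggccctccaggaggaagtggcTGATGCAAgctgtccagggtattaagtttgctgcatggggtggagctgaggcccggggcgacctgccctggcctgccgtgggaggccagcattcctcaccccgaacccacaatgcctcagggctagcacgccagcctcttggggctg
SLC7A1, chr13:29595639-29595938, minus strand: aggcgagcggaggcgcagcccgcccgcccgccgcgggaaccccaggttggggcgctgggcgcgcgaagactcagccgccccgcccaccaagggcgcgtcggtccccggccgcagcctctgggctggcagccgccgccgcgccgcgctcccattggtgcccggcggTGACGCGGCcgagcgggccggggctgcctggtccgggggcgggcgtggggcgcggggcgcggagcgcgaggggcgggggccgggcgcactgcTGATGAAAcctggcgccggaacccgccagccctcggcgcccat
The SLC3A2 window had the antioxidant letters TGACTCAGC before the start and the CARE letters TTACATCA after it. SLC1A4 had TTGCATCA across its start, SLC1A5 had TGATGCAA, the same letters on the other strand, before 1 of its RefSeq starts, and SLC7A1 had TGACGCGGC before and TGATGAAA after its start. The 6 members with a CARE match differed by between -0.19 (SLC3A2) and 0.10 (SLC1A3) on the log2 scale. A match of letters is a description and was not tested as a binding site.

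Among the heavy chains, SLC3A2 had lower values after rapamycin. It read 10.47 and 10.35 after rapamycin and GSK621, against 10.61 and 10.58 after GSK621 alone. Both rapamycin arrays were below both others, and the log2 difference was -0.19 ± 0.10 (SE), with a 95% interval of -0.44 to 0.06 and an adjusted p of 0.671. SLC3A1, the heavy chain of the cystine carrier of kidney and gut, was dim at a mean of 4.03.

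Of the expressed light chains that pair with 4F2hc, SLC7A11 had the lowest difference. Its product xCT imports cystine for glutathione synthesis in exchange for glutamate. SLC7A11 read 8.94 and 8.86 after rapamycin and GSK621, against 9.11 and 9.13 after GSK621 alone, with no overlap. The log2 difference was -0.22 ± 0.09, or 1.16-fold lower, with an interval of -0.46 to 0.02 (adjusted p = 0.611). SLC7A5, whose product LAT1 exchanges glutamine for leucine and other large neutral amino acids, read 10.88 and 10.82, against 10.78 and 10.86. Its arrays overlapped, and its interval of -0.22 to 0.27 held a difference of 0.03, which was -0.0153 without GSK621 replicate 1. SLC7A6, an exchanger of cationic for neutral amino acids, differed by 0.06 ± 0.10 with overlapping arrays. Its relative SLC7A7, the exchanger that is mutated in lysinuric protein intolerance, was dim and read 4.88 and 4.96 after rapamycin and GSK621, against 5.19 and 5.27 after GSK621 alone. SLC7A7 thus had no overlap and a log2 difference of -0.31 ± 0.10 (adjusted p = 0.562 with limma). SLC7A8, SLC7A9, SLC7A10 and SLC7A13, the remaining light chains, were dim, with differences from -0.02 to 0.09 and overlapping arrays.

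Carriers of cationic amino acids included the expressed member with the smallest p, SLC7A2. CAT2, its product, brings arginine, lysine and ornithine into macrophages and hepatocytes, among other cells. SLC7A2 read 8.39 and 8.28 after rapamycin and GSK621, against 8.67 and 8.73 after GSK621 alone. The gap between the groups exceeded the gap within each of them, and the means were 8.33 ± 0.08 and 8.70 ± 0.05 (SD, n = 2 each). This is a log2 difference of -0.37 ± 0.10, or 1.29-fold lower, with a 95% interval of -0.62 to -0.12 (adjusted p = 0.541 with limma). Leaving out each array in turn gave -0.42 to -0.31. SLC7A1, whose product CAT1 is the widespread arginine carrier, read 9.40 and 9.25 after rapamycin and GSK621, against 9.28 and 9.43 after GSK621 alone. The higher array of each group exceeded the lower array of the other, and the difference was -0.03 ± 0.11 with an interval of -0.31 to 0.25. SLC7A3, SLC7A4 and SLC7A14, the dim members of the same branch, differed by 0.15, -0.17 and -0.20, each with an adjusted p of at least 0.654.

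**Figure D2:**
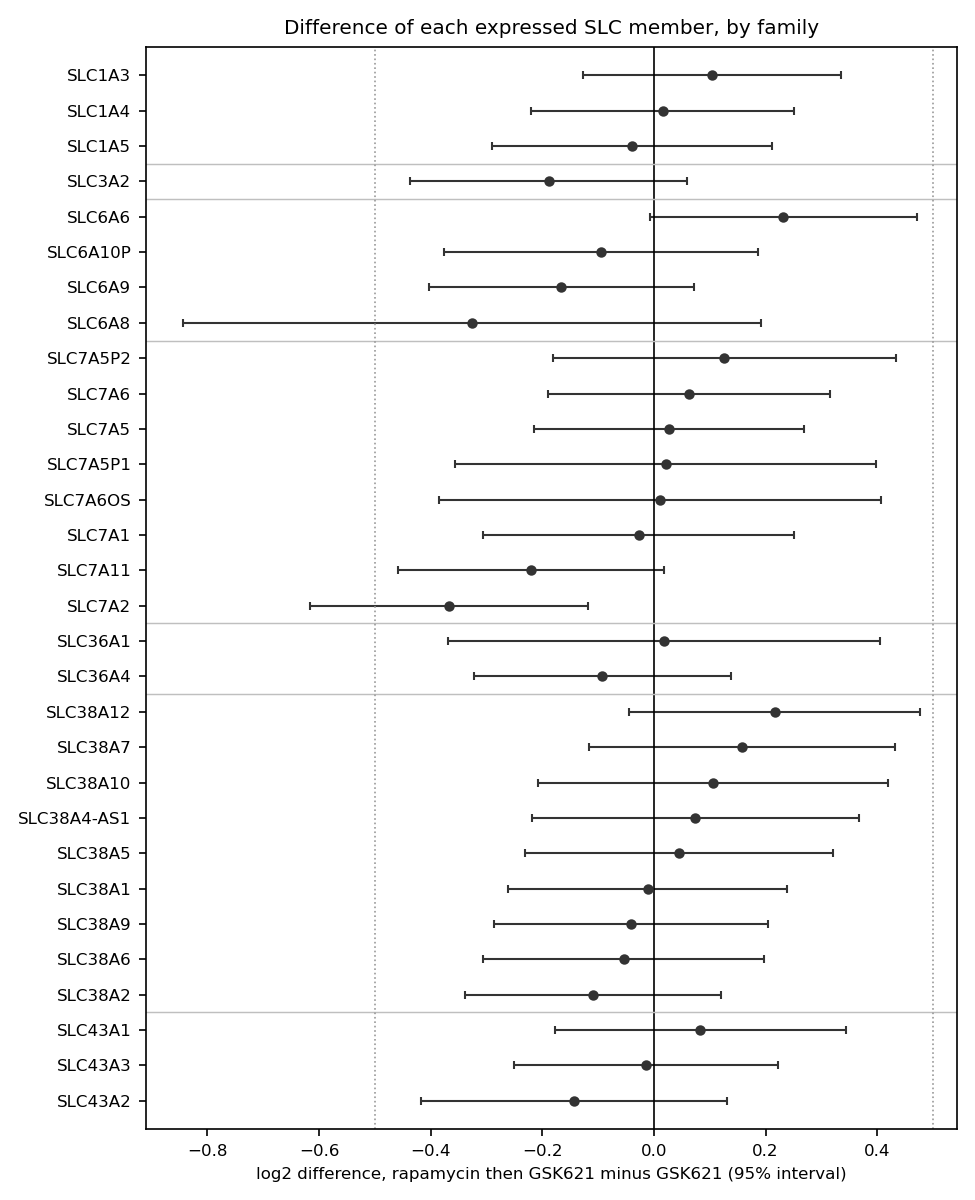
Log2 difference, rapamycin then GSK621 minus GSK621, for the 30 expressed members, with bars for the 95% interval of the limma fit over 4 arrays and dotted lines at 0.5 on either side of 0. The bar of SLC7A2 (-0.62 to -0.12) is the 1 that does not cross 0, and that of SLC6A8 (-0.84 to 0.19) is the longest.

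Sodium-driven carriers of glutamine and neutral amino acids differed little. SLC38A2, the system A carrier SNAT2 that is known to be induced when amino acids are withdrawn, read 11.63 on both arrays after rapamycin and GSK621, against 11.74 on both arrays after GSK621 alone. The replicates were almost identical, so the small gap of -0.11 ± 0.09 had no overlap, but with moderation the interval was -0.34 to 0.12 (adjusted p = 0.784). SLC38A1, the related glutamine carrier SNAT1, read 10.62 and 10.50, against 10.55 and 10.59, with overlap and a difference of -0.01 ± 0.10. SLC1A5, the glutamine exchanger ASCT2, read 8.72 and 8.76 after rapamycin and GSK621, against 8.72 and 8.84 after GSK621 alone, a difference of -0.04 ± 0.10. SLC1A4, which encodes the alanine, serine and cysteine carrier ASCT1, read 9.04 and 8.98, against 9.01 and 8.97, a difference of 0.02 ± 0.09. In none of these 3 did the groups separate, and their intervals together ran from -0.29 to 0.25. SLC38A5, a carrier of glutamine, histidine and asparagine, differed by 0.04 ± 0.11, and its relatives SLC38A3 and SLC38A4 were dim with differences of -0.05 and -0.01.

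Carriers of large neutral amino acids outside the heavy chain system belong to the SLC43 family. SLC43A2, whose product LAT4 releases leucine and its kin without exchange, read 6.77 and 6.82 after rapamycin and GSK621, against 6.85 and 7.03 after GSK621 alone. The groups did not overlap, but the 2 closest arrays were nearer each other than the 2 GSK621 arrays were, and the difference was -0.14 ± 0.11 (adjusted p = 0.763), or -0.0495 without GSK621 replicate 2. SLC43A1, the related carrier LAT3, read 9.52 and 9.36, against 9.36 on both arrays. A single high array, replicate 1 of rapamycin then GSK621, carried its difference of 0.08 ± 0.10, which was 0.00112 without it. The nucleobase carrier SLC43A3 differed by -0.01 ± 0.09.

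Glutamate and aspartate carriers of the SLC1 family are best known from brain, and SLC1A3 was the 1 expressed here. It read 7.97 and 7.94 after rapamycin and GSK621, against 7.84 and 7.86 after GSK621 alone. The groups did not overlap, and the difference was 0.10 ± 0.09 with an interval of -0.13 to 0.34. SLC1A1, SLC1A2, SLC1A6 and SLC1A7 were dim, with means from 4.07 to 4.55 and overlapping arrays.

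Carriers on the lysosome return amino acids from protein breakdown to the cytosol. SLC38A9, the arginine-sensing carrier that binds the Rag GTPases, read 8.48 and 8.55 after rapamycin and GSK621, against 8.51 and 8.60 after GSK621 alone, with overlap and a difference of -0.04 ± 0.10. SLC38A7, a lysosomal carrier of glutamine and asparagine, read 6.67 and 6.48, against 6.45 and 6.39. Its groups did not overlap, with a difference of 0.16 ± 0.11 (adjusted p = 0.738) that shrank to 0.0634 when replicate 1 of rapamycin then GSK621 was left out. SLC36A1, a proton-driven carrier of small amino acids that is needed for mTORC1 activation, read 7.07 and 6.67 after rapamycin and GSK621, against 6.88 and 6.83 after GSK621 alone. The rapamycin arrays lay on both sides of the others, so the mean difference of 0.02 ± 0.15 ranged from -0.18 to 0.22 when 1 array was left out. SLC36A4, of the same family, had no overlap and a difference of -0.09 ± 0.09. SLC36A3, a dim gene of the family, read 3.77 and 4.07, against 3.58 and 3.24, a difference of 0.51 ± 0.16 (adjusted p = 0.564 with limma). No detection call was available for it, and its difference was 0.34 without GSK621 replicate 2.

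Less studied SLC38 members were led by SLC38A12, long known as TMEM104. It read 7.83 and 7.78 after rapamycin and GSK621, against 7.66 and 7.51 after GSK621 alone. Both rapamycin arrays were higher, with a difference of 0.22 ± 0.10 and an interval of -0.04 to 0.48 (adjusted p = 0.638). Without GSK621 replicate 2 it came to 0.14. SLC38A10 and SLC38A6 had overlapping arrays and differences of 0.11 ± 0.12 and -0.05 ± 0.10.

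The SLC6 family moves osmolytes, creatine, amino acids and transmitters with sodium and chloride, and 4 of its 20 members were expressed. These counts include the expressed pseudogene SLC6A10P and the dim antisense RNA SLC6A12-AS1. SLC6A6, the taurine carrier, read 7.50 and 7.41 after rapamycin and GSK621, against 7.23 and 7.21 after GSK621 alone. The groups did not overlap, and its log2 difference of 0.23 ± 0.10 was the highest among expressed members, with an interval of -0.01 to 0.47 (adjusted p = 0.592). SLC6A9, the glycine carrier GlyT1, went the other way, with 7.48 and 7.45, against 7.59 and 7.67, a difference of -0.17 ± 0.09 (adjusted p = 0.688). SLC6A8, the creatine carrier, read 7.71 and 8.29 after rapamycin and GSK621, against 8.23 and 8.42 after GSK621 alone. Its difference of -0.33 ± 0.21 rested on 1 low array, replicate 1 of rapamycin then GSK621, and was -0.0383 without it.

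In the SLC6 family 16 members were dim, with means from 2.95 to 5.87. Of the 10 genes grouped here as SLC6 amino acid carriers, 1 was expressed, SLC6A9. The 5 carriers of transmitters, GABA among them, were all dim. SLC6A12, the betaine and GABA carrier, stood just under the level taken as expressed and read 5.62 and 5.76 after rapamycin and GSK621, against 5.89 and 6.19 after GSK621 alone. Its difference was -0.35 ± 0.14 (adjusted p = 0.586 with limma), and -0.20 without GSK621 replicate 2. SLC6A11, a GABA carrier of brain, read 3.82 and 3.75, against 3.57 and 3.51, a difference of 0.24 ± 0.10 (adjusted p = 0.586 with limma). Both had groups that did not overlap. The other 14 dim SLC6 genes had adjusted p values from 0.672 up.

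Pseudogenes and antisense RNAs carried the symbols of 8 members, of which 4 were expressed. SLC7A5P1 and SLC7A5P2 are copies of SLC7A5, and SLC6A10P is a copy of SLC6A8, so their signals cannot be kept apart from those of the parent genes with certainty. SLC7A5P2 read 6.20 and 6.02 after rapamycin and GSK621, against 6.08 and 5.89 after GSK621 alone, which overlap. SLC7A5P1 had its higher value in replicate 1 of both groups, at 9.51 and 9.21 after rapamycin and GSK621, against 9.46 and 9.21 after GSK621 alone. SLC7A6OS had the same arrangement, with 8.28 and 8.03, against 8.31 and 7.97, replicate 1 being the higher in both groups. SLC6A10P differed by -0.10 ± 0.11 and SLC38A4-AS1 by 0.07 ± 0.12.

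By family, the median log2 differences of expressed members lay between -0.188 and 0.0447. SLC6A had -0.131 over 4 members, SLC36A -0.0374 over 2, SLC43A -0.014 over 3, SLC1A 0.0156 over 3, SLC7A 0.0163 over 8 and SLC38A 0.0447 over 9, and SLC3A was SLC3A2 alone. With a mean over 7 required, the medians of SLC38A and SLC43A came to -0.0114 and 0.0346, the opposite sign. Without pseudogene and antisense rows the SLC7A median turned to -0.00819 and that of SLC38A came to 0.0166. The SLC6A median without SLC6A10P was the value of SLC6A9, -0.166. The SLC7A members ran from -0.37 to 0.13 and the SLC6A members from -0.33 to 0.23, while those of SLC38A ran from -0.11 to 0.22. Dim members had family medians from -0.0773 for SLC3A1, the 1 dim member of its family, to 0.186 over SLC36A2 and SLC36A3. No family was tested as a set.

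**Figure D3:**
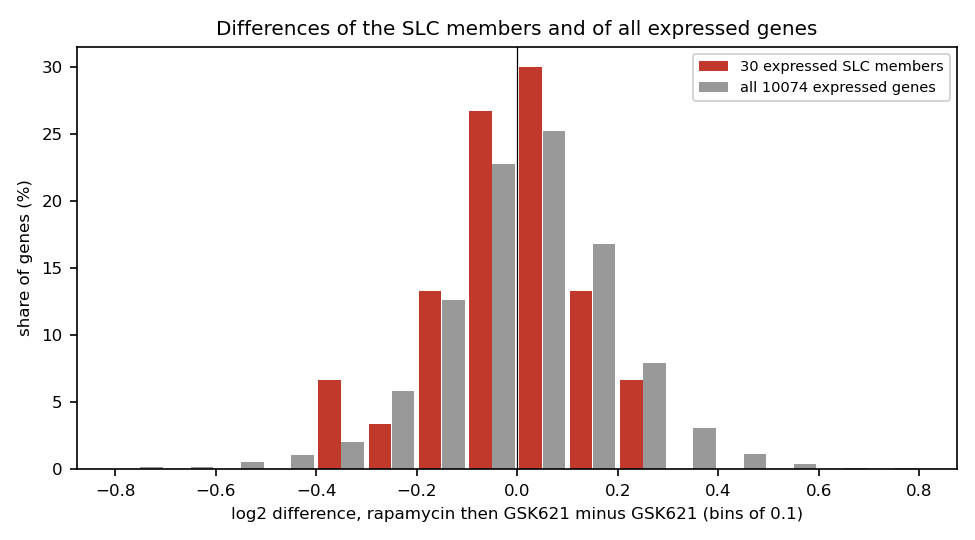
Share of genes (vertical axis, %) in bins of 0.1 of the log2 difference, rapamycin then GSK621 minus GSK621, for the 30 expressed members in red and all 10074 expressed genes in grey, drawn from -0.8 to 0.8. The bins next to 0 hold 26.7% and 30% of the members, against 22.8% and 25.2% of all expressed genes.

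Genes that sense, use or answer to amino acids were read beside the carriers. Over all 24241 genes, 12405 were higher and 11836 lower after rapamycin. The lists were chosen with earlier results of these data known, so their counts are no separate result. Some lists share genes, with SESN2 in both the ATF4 and the sensing list and CHAC1 in both the ATF4 and the glutathione list. In the ATF4 response to amino acid shortage, 15 of 17 measured genes were lower after rapamycin, with a median log2 difference of -0.279, and 8 were lower at an unadjusted p under 0.05 with limma, against 4.2% of all genes, with 5 or 6 when 1 array was left out (5 without GSK621 replicate 2 and without either rapamycin array) and 4 without moderation. All 17 had a mean over 6, and 4.84% of expressed genes were lower at an unadjusted p under 0.05 with limma. Without moderation 3.86% of all genes were. ATF5, a bZIP factor downstream of ATF4, read 7.93 and 7.89 after rapamycin and GSK621, against 8.47 and 8.58 after GSK621 alone. ATF3, TRIB3 and DDIT4, 3 further stress genes, had no overlap either, with differences of -0.75, -0.53 and -0.53. ATF5 and these 3 had the smallest p of the list on the same arrays, so they are no separate result. ATF4 itself read 9.52 and 9.69, against 9.53 and 9.69, with replicate 2 higher in both groups. Among expressed carriers, SLC7A2, SLC7A11, SLC3A2, SLC6A9, SLC43A2, SLC38A2 and SLC36A4 had differences of -0.37, -0.22, -0.19, -0.17, -0.14, -0.11 and -0.09 with no overlap. SLC7A5, SLC7A1, SLC1A4 and SLC1A5 lay between -0.04 and 0.03. In the other direction, SLC6A6, SLC38A12, SLC38A7 and SLC1A3 had differences of 0.23, 0.22, 0.16 and 0.10 with no overlap. Of the 30 expressed members, 7 were lower and 4 higher without overlap, where 21.6% and 28% of expressed genes were. ATF5, ATF3, DDIT4 and TRIB3 had adjusted p values of 0.413, 0.43, 0.436 and 0.446 with limma. With a variance trend and robust moderation, limma gave ATF5 and DDIT4 adjusted p values of 0.0331. The ATF4 list and the carriers were not tested against each other.

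Sensors upstream of mTORC1 had 20 of 29 measured genes lower, with a median log2 difference of -0.0417, and 3 were lower at an unadjusted p under 0.05 with limma, where 4.2% of all genes were. These were the leucine sensor SESN2, its relative SESN1 and the Rag GTPase RRAGD. SESN1 read 8.89 and 8.62 after rapamycin and GSK621, against 9.31 and 9.13 after GSK621 alone. SESN2 read 7.83 and 7.75, against 8.06 and 8.36, and RRAGD read 8.28 and 7.74, against 8.67 and 8.41. Each had lower values on both rapamycin arrays, though without replicate 2 of rapamycin then GSK621 the count was 0 and the RRAGD difference shrank to -0.26, and without GSK621 replicate 2 the SESN2 difference was -0.27. The count was 5 among expressed genes alone, 5 with a variance trend and 1 without moderation. Of the genes tested in these fits, 7.59%, 5.05% and 3.86% were lower by that rule. SESN3 differed by -0.29 ± 0.12, and -0.17 without GSK621 replicate 2.

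Cystine and glutathione genes, which use what xCT imports, were split, with 5 of 11 higher and 6 lower and a median log2 difference of -0.00142. CTH, the enzyme that makes cysteine inside the cell from cystathionine, read 7.15 and 7.02 after rapamycin and GSK621, against 7.50 on both arrays after GSK621 alone. GSS, glutathione synthetase, read 7.89 and 7.86, against 8.11 and 8.23. These 2 of the 11 genes were lower at an unadjusted p under 0.05 with limma, where 4.2% of all genes were, with adjusted p values of 0.489 and 0.564, and the count was 1 when any array but GSK621 replicate 1 was left out. GCLM, a subunit of the enzyme that starts glutathione synthesis, differed by -0.18 ± 0.09, and the glutathione peroxidase GPX4 by 0.23 ± 0.12, or 0.13 without replicate 1 of rapamycin then GSK621.

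Enzymes that consume glutamine, branched-chain amino acids and arginine had 11 of 14 measured genes lower and a median log2 difference of -0.0876. At an unadjusted p under 0.05 with limma 5 were lower, where 4.2% of all genes were, a count that came to 2 without GSK621 replicate 1, and to 3 when replicate 2 of rapamycin then GSK621 was left out. GOT1, the cytosolic aspartate aminotransferase, read 9.35 and 9.26 after rapamycin and GSK621, against 9.74 and 9.82 after GSK621 alone. SMS, spermine synthase, differed by -0.47 ± 0.12, the branched-chain dehydrogenase subunit DBT by -0.35 ± 0.10 and GLUL, glutamine synthetase, by -0.33 ± 0.10. ODC1, the first enzyme from ornithine to polyamines, was the remaining gene of the 5, at -0.32 ± 0.10, and was named after its value was seen. The groups did not overlap in any of the 5, but these were picked by their p on the same arrays, so this is no separate result. Of all 24241 genes, 18.9% had both rapamycin arrays below both GSK621 arrays.

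Other amino acid and peptide carriers outside the 7 families had 6 of 12 genes higher and 6 lower. CTNS, the lysosomal cystine exporter cystinosin, read 7.18 and 7.23 after rapamycin and GSK621, against 6.94 and 6.92 after GSK621 alone. Both rapamycin arrays were higher, with a difference of 0.27 ± 0.09 (adjusted p = 0.564 with limma). The dim vesicular glutamate carrier SLC17A8 differed by -0.40 ± 0.14, and -0.25 without replicate 2 of rapamycin then GSK621. SLC17A6 and SLC32A1, vesicular carriers of glutamate and of GABA, were dim with differences of 0.09 and -0.13 The SLC32A1 difference was -0.00422 when replicate 2 of rapamycin then GSK621 was left out.

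**Figure D4:**
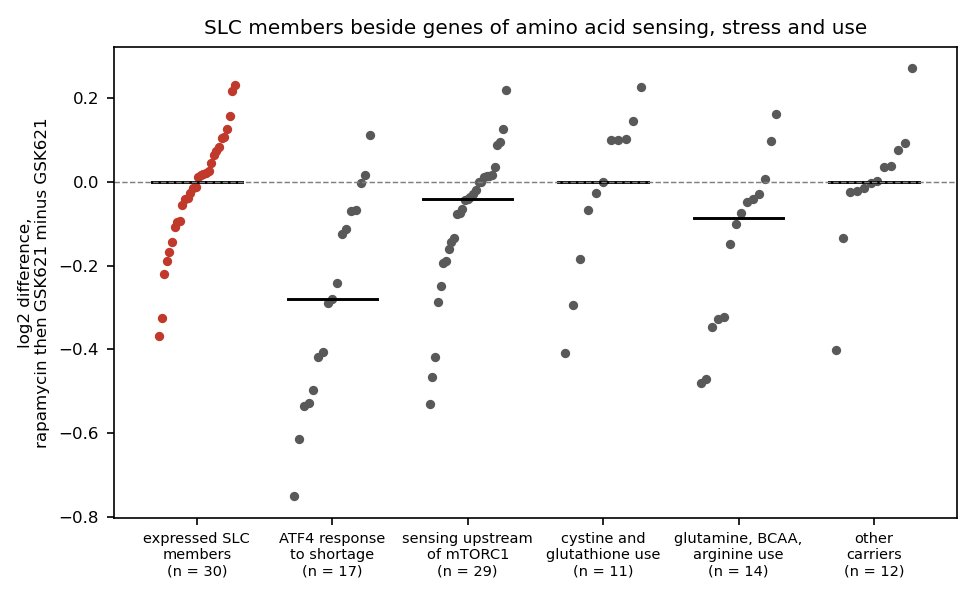
Log2 difference, rapamycin then GSK621 minus GSK621, of each gene (points, in rank order within a list) for the 30 expressed members in red and the 5 lists of neighbouring genes in grey, with black lines at the medians. The median line of the ATF4 list lies at -0.279 and that of the members at 0 to 2 decimals.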

How the data were processed

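RNA of 4 MOLM-14 cultures was hybridised to Affymetrix whole-transcript arrays. The authors deposited log2 expression values, 1 per gene-level probe set (25582). Partek and R 2.15.3 are named in the submitters' processing notes. Background correction, normalization and the role of each tool are not given in the sources used here, and the log base was read from the range (1.836 to 13.28) and the near-equal quantiles. No detection calls were used. The labels name biological replicates. The p-values rest on the spread between these cultures, moderated for each gene with a spread shared over all genes.

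Rows were named through the platform annotation, with 24244 probe sets carrying 1 symbol, 0 several and 1338 none. For 3 symbols with several probe sets the one with the highest mean was kept, leaving 24241 genes. The values were used as deposited. The log2 difference, rapamycin then GSK621 minus GSK621, came from limma 3.58.1 in R 4.3.3 (lmFit, eBayes; two-sided test, Benjamini-Hochberg adjustment across the 24241 genes), with 2 residual and 3.39 prior degrees of freedom, and 95% intervals from the same fit. The procedure was tested on simulated data with planted changes larger than the difference of any member. Recovery of differences as small as those of the members was not tested. With 2 arrays a group, the smallest p of an exact permutation test is 0.333, so none was used. Biotypes and promoter windows came from RefSeq (GRCh38.p14), where all 68 members were matched by gene ID for biotype.

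The members and lists were chosen with earlier results of these data known. By the rule for named genes, every expressed member is accounted for, the 12 with the smallest p and 12 fixed carriers are given in full, and up to 4 genes per neighbouring list are named, with ATF4 and DDIT4. The dim members with an unadjusted p under 0.05 were named after their values were seen.

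Alternatives were a block for the replicate number, arrays centred or quantile-normalized, a fit to expressed genes, other variance moderation, every probe set, other levels for expressed genes, pseudogene and antisense rows left out, a stricter threshold, and leaving out each array.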

Additional observations from a re-analysis of the deposited data

How the results depend on the processing

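Of the 24241 genes, the count past an adjusted p under 0.05 was 0, and it was 18 among expressed genes alone, 74 with a variance trend and robust moderation and 1 without moderation, with 0 when any 1 array was left out. Members lower at an unadjusted p under 0.05 numbered 3, and 5 without moderation, 1 with a mean over 7 required, 0 at a p under 0.01, and 0 to 4 with 1 array left out. Members higher numbered 2, and 1 with the replicate number as a block, 1 after centring, 0 with a mean over 5 required, 0 with a mean over 7, 0 at a p under 0.01, and 0 to 2 with 1 array left out. The median of expressed members ranged from -0.0224 to 0.0461 with 1 array left out. The block changed no other of these counts. Over all genes, 3.86% were lower and 4.22% higher at an unadjusted p under 0.05 without moderation. These shares were 4.44% and 4.5% with the block, and 3.73% and 4% after centring. Replicate differences of the 2 groups correlated at 0.0923 over all genes and at 0.492 over the 30 expressed members, of which 19 had the same sign in both. On the value over all genes, the numbers were not taken to pair the cultures.

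Signs near 0 turned. SLC36A1 came to -0.00572 and ATF4 to 0.0186 with quantile normalization, and ATF4 to 0.00203 after centring. With 1 array left out, SLC7A5 ranged from -0.0153 to 0.068, SLC43A3 from -0.0495 to 0.0215, SLC38A10 from -0.0295 to 0.241, SLC38A5 from -0.055 to 0.144, SLC6A10P from -0.201 to 0.011, SLC7A5P1 from -0.13 to 0.173, SLC1A4 from -0.0158 to 0.047, SLC7A6OS from -0.159 to 0.182, SLC7A6 from -0.00113 to 0.127, SLC38A6 from -0.121 to 0.0119, SLC36A1 from -0.184 to 0.22, ATF4 from -0.0847 to 0.08, SLC38A1 from -0.0741 to 0.0513, SLC7A1 from -0.102 to 0.0472, SLC1A5 from -0.102 to 0.0242, SLC38A9 from -0.0894 to 0.00582 and SLC38A4-AS1 from -0.0281 to 0.177. The causes were not tested. With a variance trend and robust moderation GOT1 (adjusted p = 0.0413 with limma), ATF5 and DDIT4 (0.0331 each) passed the threshold. In the fit described first, their adjusted p values with limma were 0.436, 0.413 and 0.436. Of the other values for single genes, 199 with 1 array left out and 378 under other settings kept their sign and their side of the threshold. List counts under these settings were added after seeing the data.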

Other observations

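The replicate number went with larger differences than the treatment for 14 of the 30 expressed members, against 37.9% of all expressed genes. Replicate 2 was lower than replicate 1 in both groups for 12 members and higher in both for 7, where 22.9% and 30.5% of expressed genes had such values. The members with the largest gap between replicate numbers were SLC6A8, with replicate 2 higher by 0.38 on the log2 scale, and SLC7A6OS and SLC7A5P1, with replicate 2 minus replicate 1 at -0.30 and -0.28. These 3 were named after their values were seen. No label says what the replicate number stands for beyond a separate culture.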
